A study of Mus musculus with 12 samples.

Results

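The genes described here are 10 members of the Notch pathway and of the arterial and venous programmes of endothelium in the mouse yolk sac: Dll4, Jag1, Notch1, Notch3, Hey1, Gja5, Unc5b, Efnb2, Ephb4 and Nr2f2. They were taken by gene symbol, current or older, from the non-control probes of the arrays, which held 19 probes for them. All 10 had a probe that passed the filter on dim signals (13 of the 19 probes), and they were tested among 13897 genes in all. RNA of whole yolk sacs in Cy5 was hybridized with a reference RNA in Cy3, so each level is a log2 ratio of yolk sac over reference for that probe, and levels of different genes are not set against each other.

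The 4 groups were wild-type and Baf250a/Arid1a V1068G/V1068G yolk sacs at embryonic day 8.5 (E8.5) and the same genotypes at E9.5, all on a CD1 background, with 3 biological replicates in each. The mutation exchanges 1 amino acid of ARID1A, also called BAF250A, which sits in SWI/SNF chromatin remodelling complexes and binds DNA through its ARID domain. The labels name no Cre or transgene, and they do not give the number of yolk sacs in a replicate. The reference came from whole wild-type neonatal mice of mixed 129Sv and C57BL/6 background and was the same for all 12 arrays.

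Notch receptors are cut after they bind a ligand on a neighbouring cell, and the freed intracellular part joins RBPJ in the nucleus to switch on targets such as the Hey and Hes repressors. In vessels the pathway acts with VEGF signalling to set arterial identity, while COUP-TFII, the product of Nr2f2, holds Notch signalling down in veins. In the yolk sac a primitive plexus of endothelial channels is remodelled into branched vessels around these stages, and mice that lack Notch1, Dll4, Efnb2 or Ephb4 fail in that remodelling.

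In Cy5, 46.7% to 50.1% of an array's probes gave a signal well above background, and the number of arrays limits the precision. Afp of visceral endoderm and the embryonic globin Hbb-bh1 were above the reference on all 12 arrays, between 0.23 and 2.26 and between 5.19 and 5.82. Markers of yolk sac mesenchyme and mesothelium lay on both sides of it, with Col1a1 between -4.53 and -2.39 and Upk3b between 0.14 and 1.61. The mutated gene's own transcript, Arid1a, was 0.05 ± 0.064 (SE) higher in the mutant at E8.5 and 0.16 ± 0.064 higher at E9.5 (adjusted p of 0.824 and 0.300, limma), which does not check a point mutation. Wild-type E8.5 replicate 2 stood apart: on it the cardiac light chain Myl7 was at 0.01, against -3.14 to -1.47 on the other arrays. Hes5, a Notch target that is also listed with the neural and somite markers, was at 0.06 there, against -1.55 to -1.41. The trophoblast hormone Prl4a1 was at 3.74 to 5.70 on replicate 3 of every group but the wild type at E8.5, and at 0.26 to 1.53 on the others. Xist, the RNA of X inactivation, was at -4.17 to -4.01 on 3 arrays (replicate 2 of the wild type at E9.5, replicates 2 and 3 of the mutant at E8.5) and at -1.98 to -0.52 on the others; the labels do not give the sex of the embryos.

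Of the 10 genes, 1 differed between the genotypes: Unc5b was 0.35 ± 0.076 lower in the mutant at E9.5. In the wild type 3 genes rose from E8.5 to E9.5 (Gja5, Ephb4 and Unc5b) and 1 fell (Hey1). In the mutant 1 gene changed between the stages, and it was Unc5b, which fell. The stage changes of Gja5, Ephb4 and Unc5b had opposite signs in the 2 genotypes, but the test of that difference passed for none of the 10 genes. The counts stand beside those of all 13897 genes, of which 1.44% passed between the genotypes at E8.5, 1.99% at E9.5, 23.8% between the stages in the wild type, 21.6% between the stages in the mutant, 4.68% for the genotype averaged over both stages and 0% for the genotype-by-stage difference. A gene passed with an adjusted p under 0.05 (limma on all 12 arrays, Benjamini-Hochberg over all genes), and all differences below are on the log2 scale with the standard error of that fit. In whole tissue, fewer cells of a type and less RNA per cell cannot be told apart.

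**Figure D1:**
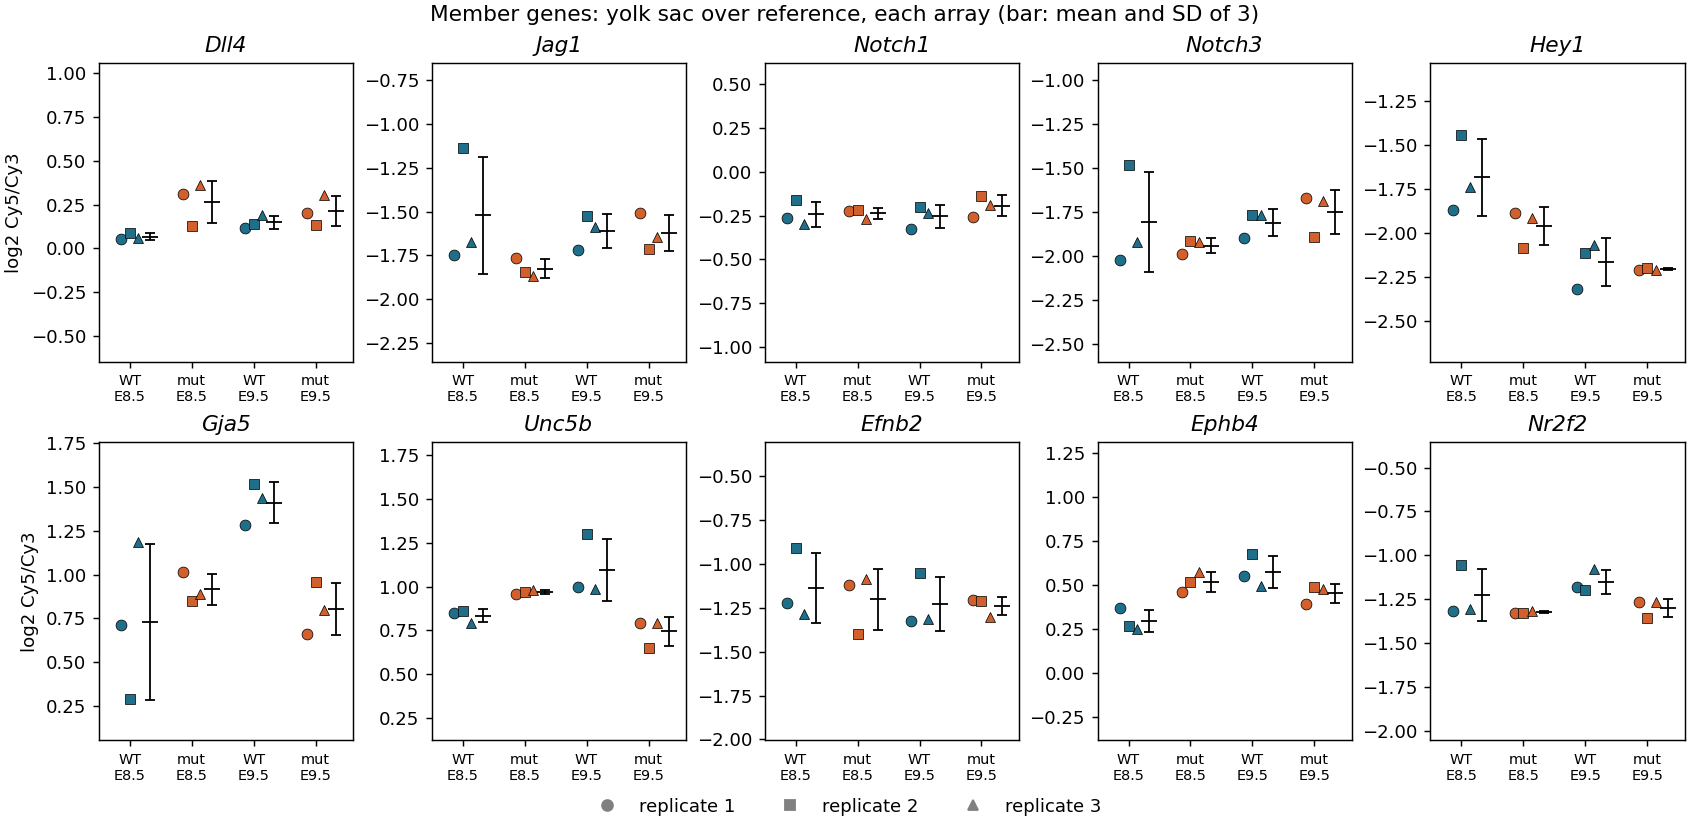
Log2 ratio of yolk sac (Cy5) over reference (Cy3) of each of the 10 genes on each of the 12 arrays, by genotype (WT, wild type; mut, mutant) and stage, with the mean and SD of the 3 replicates; every panel spans the same height. Gja5 sits between 1.28 and 1.52 in the wild type at E9.5, above all other arrays, and wild-type E8.5 replicate 2 is the highest array for Jag1, Notch3, Hey1, Efnb2 and Nr2f2.

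Dll4 and Jag1 encode ligands. Dll4, the Delta-like ligand of arterial and tip endothelium, was at 0.05, 0.09 and 0.06 in the wild type at E8.5, at 0.31, 0.13 and 0.36 in the mutant at E8.5, at 0.12, 0.14 and 0.19 in the wild type at E9.5, and at 0.20, 0.14 and 0.31 in the mutant at E9.5. The 3 mutant arrays were above the 3 wild-type arrays at E8.5, while the genotypes overlapped at E9.5. The difference at E8.5 was 0.20 ± 0.065 with an unadjusted p of 0.00827 and an adjusted p of 0.181, and that at E9.5 was 0.07 ± 0.065 (adjusted p = 0.790). Averaged over both stages Dll4 was 0.13 ± 0.046 higher in the mutant (adjusted p = 0.133), and passed in 1 of 21 alternatives, without mutant E8.5 replicate 2 (0.17, adjusted p = 0.0495). Its probe was the dimmest of the 10, at 13.9 intensity units above the local background on average, and with the scanner software's own processed signals the difference at E8.5 was 0.82 (adjusted p = 0.131; 0.0878 to 0.528 over the 22 alternatives).

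Jag1, a ligand of both endothelium and mural cells, was at -1.75, -1.14 and -1.67 in the wild type at E8.5 and at -1.76, -1.84 and -1.87 in the mutant. At E9.5 it was at -1.72, -1.53 and -1.59 in the wild type and at -1.51, -1.71 and -1.65 in the mutant. The genotypes overlapped at E9.5 and did not at E8.5, where 1 array set most of the gap: the difference of -0.31 ± 0.121 (adjusted p = 0.297) was -0.11 without wild-type E8.5 replicate 2, the array with high heart and neural transcripts. It was larger with an offset of 10 (-0.55, adjusted p = 0.294) and with the processed signals (-0.89, adjusted p = 0.223). From E8.5 to E9.5 Jag1 was 0.20 ± 0.121 higher in the mutant, with groups that did not overlap and an adjusted p of 0.270. It passed there only when wild-type E8.5 replicate 2 was left out (adjusted p = 0.0395) or when the 6 mutant arrays were fitted alone (adjusted p = 0.0483).

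Of the receptors, Notch1 is the main one of endothelium and Notch3 that of mural cells. Notch1 was printed as 10 spots on each array, whose ratios varied with an SD of 0.066 to 0.198 within an array. It was at -0.26, -0.16 and -0.30 in the wild type and at -0.22, -0.22 and -0.27 in the mutant at E8.5, and at -0.33, -0.20 and -0.24 against -0.26, -0.14 and -0.19 at E9.5. The genotypes overlapped at both stages, with differences of 0.00369 ± 0.057 and 0.06 ± 0.057 (adjusted p of 0.990 and 0.781). The 95% confidence interval of the difference reached from -0.12 to 0.13 at E8.5 and from -0.06 to 0.18 at E9.5. A further Notch1 probe gave -0.12 ± 0.060 and -0.000603 ± 0.060, with adjusted p of 0.474 and 0.999 over the 20064 probes kept.

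Notch3 was at -2.02, -1.48 and -1.92 in the wild type at E8.5 and at -1.99, -1.91 and -1.92 in the mutant, so that apart from the high wild-type E8.5 replicate 2 the arrays lay close together. At E9.5 it was at -1.90, -1.77 and -1.77 in the wild type and at -1.67, -1.90 and -1.69 in the mutant. The genotype differences were -0.13 ± 0.109 at E8.5 (0.03 without that array) and 0.06 ± 0.109 at E9.5, with adjusted p of 0.687 and 0.909. In the mutant Notch3 was 0.19 ± 0.109 higher at E9.5 than at E8.5, without overlap (adjusted p = 0.248). The level of 12 mural and smooth muscle markers (of 14 listed), given as their mean deviation from the 12-array mean, lay between -0.10 and -0.06 on the mutant arrays at E8.5 and between 0.12 and 0.19 at E9.5; its part in the values of Notch3 and Jag1 was not tested.

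Hey1, the Notch target of this set, encodes a transcriptional repressor that acts in arterial fate and in the heart. It was at -1.87, -1.44 and -1.74 in the wild type at E8.5 and at -2.32, -2.11 and -2.07 at E9.5, and in the mutant at -1.89, -2.09 and -1.91 and then at -2.21, -2.20 and -2.21. In both genotypes every E9.5 array lay below every E8.5 array. Hey1 fell by 0.48 ± 0.097 in the wild type, a 1.40-fold decrease (adjusted p = 0.00252), lower on each of the 3 slides. The fall was -0.36 without wild-type E8.5 replicate 2 (adjusted p = 0.00671) and was lost with median centring of the arrays (-0.35, adjusted p = 0.103). In the mutant the stage difference was -0.24 ± 0.097 (adjusted p = 0.0896), and the difference between the 2 stage changes, 0.24 ± 0.137, did not pass (adjusted p = 0.922, 95% confidence interval -0.05 to 0.53).

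Heart markers were lower at E9.5 in the wild type as well. Of 8 tested (of 11 listed), 0 rose and 3 fell there from E8.5 to E9.5, beside 1525 of all 13897 genes that fell. In the mutant 0 of the 8 rose and 0 fell, with a median of -0.13. The mean deviation of the 8 was 0.80 on replicate 2 of the wild type at E8.5, against -0.22 to 0.12 on the other 11 arrays. On the mutant arrays this mean lay between -0.07 and 0.05 at E8.5 and between -0.18 and -0.09 at E9.5. The part of cardiac tissue in the level of Hey1 was not tested. The difference between the genotypes at E8.5, -0.28 ± 0.097 (adjusted p = 0.213), was -0.16 without that array, and at E9.5 the genotypes overlapped (-0.04 ± 0.097, adjusted p = 0.938).

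Gja5, Unc5b and Efnb2 are the arterial genes. Gja5 encodes connexin 40, a gap junction protein of arterial endothelium and of the atria. It was at 0.71, 0.29 and 1.18 in the wild type at E8.5, at 1.02, 0.85 and 0.89 in the mutant at E8.5, at 1.28, 1.52 and 1.43 in the wild type at E9.5, and at 0.66, 0.96 and 0.80 in the mutant at E9.5. The wild-type E8.5 arrays were spread widely and covered all 3 mutant arrays of that stage, whereas the wild-type E9.5 arrays lay above all 9 others. Gja5 rose by 0.68 ± 0.157 in the wild type, 1.60-fold (adjusted p = 0.00616), and by 0.46 without wild-type E8.5 replicate 2 (adjusted p = 0.0148); this rise passed in all 22 alternatives. In the mutant the stage difference was -0.11 ± 0.157 (adjusted p = 0.677).

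At E9.5 Gja5 was 0.60 ± 0.157 lower in the mutant, and the gap was alike on the 3 slides, at -0.62, -0.56 and -0.64, but the adjusted p was 0.0695 with all 12 arrays sharing 1 spread. Without wild-type E8.5 replicate 2 or replicate 3, the arrays at the ends of the wide wild-type E8.5 group, the same gap had an adjusted p of 0.00589 and 0.00810, and with the 6 E9.5 arrays alone 0.00500. The gap passed in these 3 of the 22 alternatives only, and its adjusted p reached 0.337 over the 22. With the scanner software's processed signals it was -0.73 (adjusted p = 0.289). The genotype difference at E8.5 was 0.19 ± 0.157, with a 95% confidence interval from -0.15 to 0.52. The change of the genotype difference between the stages was -0.79 ± 0.222 (unadjusted p = 0.00304, adjusted p = 0.492) and was negative on all 3 slides.

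The values of Gja5 come from 1 of its 4 probes, which matches the RefSeq transcript NM_008121. A further probe for that transcript, at -2.381 kb from the first by the files' coordinates, stayed too close to background on all 12 arrays. The other 2 probes carry the symbol Gja5 through a spinal cord cDNA and lie 1357.62 and 1358.32 kb from the first by the same coordinates; 1 of them was measured, and it gave 0.02 ± 0.062 for mutant against wild type at E9.5 (adjusted p = 0.960 over all probes kept). With the mean of the measured Gja5 probes the wild-type rise was 0.38 and the E9.5 difference -0.29, which did not pass.

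Unc5b, a netrin receptor of arterial and sprouting endothelium, had the brightest probe of the 10, at 371.4 intensity units above background. It was at 0.85, 0.86 and 0.79 in the wild type at E8.5, at 0.96, 0.97 and 0.98 in the mutant at E8.5, at 1.00, 1.30 and 0.98 in the wild type at E9.5, and at 0.79, 0.65 and 0.79 in the mutant at E9.5. At both stages the genotypes did not overlap, with the mutant above the wild type at E8.5 and below it at E9.5. The difference was 0.14 ± 0.076 at E8.5 (adjusted p = 0.503). At E9.5 Unc5b was lower in the mutant by 0.35, a 1.27-fold difference (adjusted p = 0.0275), with -0.21, -0.65 and -0.19 on the 3 slides.

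The stage changes of Unc5b ran opposite ways. It rose by 0.26 ± 0.076 in the wild type (adjusted p = 0.0226; 0.15, 0.44 and 0.19 on the 3 slides) and fell by 0.23 ± 0.076 in the mutant (adjusted p = 0.0469; -0.17, -0.32 and -0.19). The difference between these changes was -0.49 ± 0.107, with an unadjusted p of 0.000450, the smallest of the members, and an adjusted p of 0.291. Wild-type E9.5 replicate 2, the highest array for Unc5b, Gja5 and Ephb4 and one of the arrays with low Xist, carried part of this: without it the wild-type rise was 0.16 (adjusted p = 0.0878) and the E9.5 difference -0.25 (adjusted p = 0.0877). With Xist as a covariate, an alternative chosen after the data were seen, the E9.5 difference was -0.25 (adjusted p = 0.164), and the mutant stage change -0.07 (adjusted p = 0.677). Xist itself differed in these comparisons, by 1.32 ± 0.635 and 2.18 ± 0.635 (adjusted p of 0.437 and 0.0238, limma). Its part thus cannot be fully told apart from that of genotype or stage. With the 6 E9.5 arrays alone the E9.5 difference had an adjusted p of 0.0893. It passed in 11 of 22 alternatives, the wild-type rise in 15 and the mutant fall in 7, and under median centring the mutant fall was -0.03 against a median of all genes of 0.14.

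**Figure D2:**
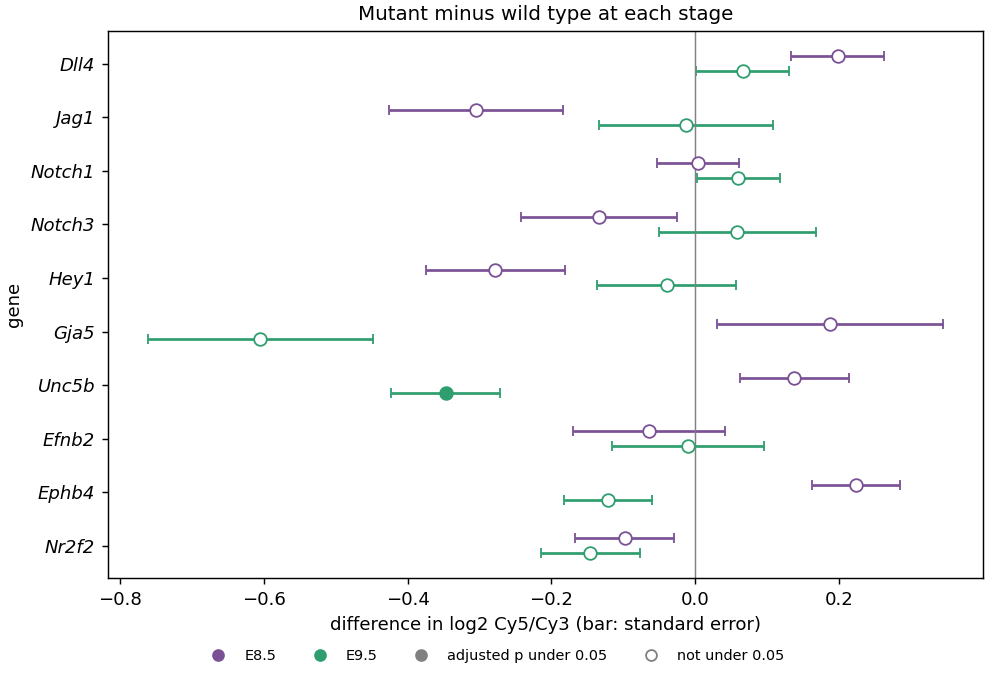
Mutant minus wild type in log2 Cy5/Cy3 for the 10 genes at E8.5 and at E9.5, with the standard error of the fit; filled points have an adjusted p under 0.05. The filled point is Unc5b at E9.5, at -0.35, and Gja5 at E9.5 lies lowest, at -0.60, with a wider error.

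Efnb2 encodes ephrin-B2, the arterial partner of EPHB4. It was at -1.22, -0.91 and -1.28 in the wild type at E8.5, at -1.12, -1.40 and -1.09 in the mutant at E8.5, at -1.32, -1.05 and -1.31 in the wild type at E9.5, and at -1.21, -1.21 and -1.30 in the mutant at E9.5. All 4 groups overlapped. The genotype difference was -0.06 ± 0.105 at E8.5 and -0.01 ± 0.105 at E9.5 (adjusted p of 0.873 and 0.988), and the 95% confidence interval at E9.5 was -0.24 to 0.22. Its further probe did not rise well above background in Cy5.

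Ephb4 and Nr2f2 are the venous genes. Ephb4 encodes the receptor of ephrin-B2 on venous endothelium. It was at 0.37, 0.26 and 0.25 in the wild type at E8.5, at 0.46, 0.52 and 0.58 in the mutant at E8.5, at 0.55, 0.68 and 0.49 in the wild type at E9.5, and at 0.39, 0.49 and 0.48 in the mutant at E9.5. The wild-type E8.5 arrays were the 3 lowest of the 12. Ephb4 rose by 0.28 ± 0.062 in the wild type, 1.21-fold (adjusted p = 0.00469), and this passed in all 22 alternatives with values of 0.22 to 0.43. The mutant's stage difference was -0.07 ± 0.062 (adjusted p = 0.499).

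Between the genotypes Ephb4 was 0.22 ± 0.062 higher in the mutant at E8.5 (adjusted p = 0.0969), which rests on the same wild-type E8.5 arrays as the rise. At E9.5 it was -0.12 ± 0.062 (adjusted p = 0.476). The change of the genotype difference between the stages was -0.35 ± 0.087 (unadjusted p = 0.00137, adjusted p = 0.402), negative on all 3 slides. Its further probe was well above background on 1 of the 12 arrays.

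Nr2f2, which encodes the venous regulator COUP-TFII and is made in mesenchyme as well, was at -1.32, -1.05 and -1.31 in the wild type at E8.5 and at -1.33, -1.33 and -1.31 in the mutant. At E9.5 it was at -1.18, -1.20 and -1.08 in the wild type and at -1.27, -1.36 and -1.27 in the mutant, where the genotypes did not overlap. The difference at E9.5 was -0.15 ± 0.069 (adjusted p = 0.425), and averaged over both stages -0.12 ± 0.049 (adjusted p = 0.204). A further probe, 1.072 kb away, read above the reference instead of below it, at 0.61 to 1.07, and gave -0.28 ± 0.099 at E9.5 (adjusted p = 0.270 over all probes kept). Both of these probes thus read lower in the mutant at E9.5, without passing, while they did not share a level against the reference. The last Nr2f2 probe, 12.25 kb away, was well above background in Cy5 on 1 of the 12 arrays and did not pass the filter.

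**Figure D3:**
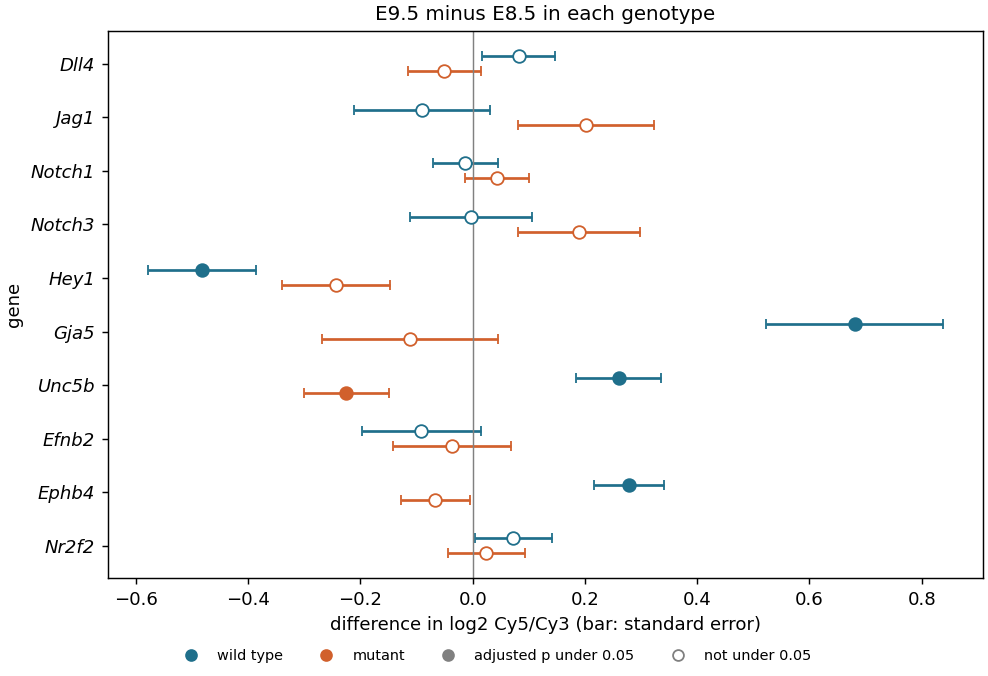
E9.5 minus E8.5 in log2 Cy5/Cy3 for the 10 genes, by genotype, with the standard error of the fit; filled points have an adjusted p under 0.05. Gja5 (0.68), Ephb4 (0.28) and Unc5b (0.26) are right of 0 in the wild type and left of 0 in the mutant (-0.11, -0.07 and -0.23), and Hey1 is left of 0 in both.

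The count of genotype-by-stage differences was 0 of 10 by limma, with 3 at an unadjusted p under 0.05, against 5.73% of all genes. At E8.5 0 of 10 genes passed between the genotypes, with 4 at an unadjusted p under 0.05 (Dll4, Jag1, Hey1 and Ephb4), against 12.4% of all genes. For the genotype averaged over both stages 0 passed, with 3 under 0.05 unadjusted (Dll4, Hey1 and Nr2f2), against 17% of all genes. At E9.5 the 1 gene passed beside 2 under 0.05 unadjusted (Unc5b and Gja5), against 12% of all genes. The median difference of the 10 genes was -0.03 at E8.5 and -0.03 at E9.5, beside 0.0019 and 0.00024 for all genes.

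The 3 genes that rose in the wild type are shown with the 250 bases upstream of their RefSeq start sites (build GRCm38.p6). This sets beside each other the sequences of genes that passed in the same direction in that comparison. Within groups Gja5 did not follow the other 2 (Pearson r of -0.12 with Unc5b and 0.08 with Ephb4). The table of promoters held 9 of the 10 members, without Hey1. Capitals mark GGGCGG, the core letters bound by Sp and KLF factors, read on either strand (CCGCCC on the other).
Gja5, chr3:97032152-97032401, plus strand: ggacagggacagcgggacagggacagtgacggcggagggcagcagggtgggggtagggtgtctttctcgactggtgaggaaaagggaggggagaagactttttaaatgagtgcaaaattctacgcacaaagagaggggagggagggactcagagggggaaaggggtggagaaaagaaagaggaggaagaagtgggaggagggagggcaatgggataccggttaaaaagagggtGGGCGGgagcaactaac
Unc5b, chr10:60831582-60831831, minus strand: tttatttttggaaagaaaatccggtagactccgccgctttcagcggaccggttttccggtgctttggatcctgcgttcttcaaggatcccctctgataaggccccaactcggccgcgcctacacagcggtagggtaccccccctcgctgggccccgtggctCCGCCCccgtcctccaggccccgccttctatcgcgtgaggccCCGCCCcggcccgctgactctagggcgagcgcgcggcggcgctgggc
Ephb4, chr5:137349859-137350108, plus strand: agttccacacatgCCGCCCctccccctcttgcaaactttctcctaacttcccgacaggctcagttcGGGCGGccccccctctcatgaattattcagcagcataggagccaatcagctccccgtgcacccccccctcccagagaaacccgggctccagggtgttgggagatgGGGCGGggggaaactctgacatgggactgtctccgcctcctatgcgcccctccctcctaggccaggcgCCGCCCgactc
These letters stood in the upstream window of 7 of the 9 members (1 match in Gja5, 2 in Unc5b and 4 in Ephb4), and in 32.7% of all 32851 promoters. GGGCGG holds only G and C, which made up 50% to 72% of the bases in the 9 windows. The promoters counted were not matched for this share or limited to the genes tested, and its part in these counts was not tested. The core letters of RBPJ sites, TGGGAA, were in 0 of the 9 windows and in 21.6% of all. AGGAAG, letters of ETS sites, were in 2 of the 9 (Gja5 and Nr2f2) and in 29.5% of all, and AGATAA, letters of GATA sites, in 0 of the 9 and in 9.99% of all. No match of one motif overlapped a match of another, and the arrays do not show which start site was used. A match is a run of letters, and its absence holds for this window only.

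By their pattern over the 12 arrays, the genes most like Gja5 were Tspan13 (Pearson r = 0.92), Rasl10b (0.86) and Ext2 (0.85). For Unc5b they were Bmp2k (0.89), Pim2 (0.85) and E2f8 (0.85), and for Ephb4 Oaf (0.87), Optn (0.86) and 4933404O12Rik (0.86). The genes most like Hey1 were Rcor2 (0.95), Pkm (0.94) and Traf4 (0.94). These are the highest values among the tested genes with an official symbol and no missing value. The arrays share a reference and 4 groups, and the values are descriptions.

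Other genes of the same pathways were taken from 4 lists, and the counts cover the members that passed the filter on dim probes. Of all genes, 1.44% passed between the genotypes at E8.5, 1.99% at E9.5 and 4.68% averaged over both stages. An unadjusted p under 0.05 (limma) was found for 12.4% of all genes at E8.5 and 12% at E9.5. Of 33 other Notch pathway genes measured (of 44), 1 rose in the mutant: Dtx4, a Deltex ubiquitin ligase that regulates Notch, by 0.43 ± 0.098 at E9.5 (adjusted p = 0.0367). It was at -1.47, -1.31 and -1.31 in the wild type and at -1.12, -0.92 and -0.78 in the mutant, without overlap, and averaged over both stages it was 0.34 higher (adjusted p = 0.00965). The call at E9.5 held in 5 of 22 alternatives and the averaged one in 19 of 21. At E8.5 0 of the 33 passed, with 2 at an unadjusted p under 0.05, and the median of the list was -0.02 at E8.5 and 0.0035 at E9.5. The lowest difference at E8.5 was that of Hes5, -0.49 ± 0.275 (adjusted p = 0.515, limma), with its high value on wild-type E8.5 replicate 2.

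Of 22 other arterial genes measured (of 27), 2 rose in the mutant at E8.5 and 1 fell at E9.5. The 2 were SoxF transcription factors, Sox17 (0.39 ± 0.082, adjusted p = 0.0311) and Sox7 (0.28 ± 0.059, adjusted p = 0.0270). Sox17 was at 0.31, 0.18 and 0.32 in the wild type and at 0.72, 0.54 and 0.71 in the mutant. Averaged over both stages Sox17 was 0.32 and Sox7 0.23 higher in the mutant (adjusted p of 0.00475 and 0.00537), each in 20 of 21 alternatives, whereas the E8.5 calls held in 11 and 10 of 22. Some markers of other cells were higher in the mutant at E8.5 too. Of 12 mesenchyme and mesothelium markers 4 rose, beside 99 of all 13897 genes. The mean deviation of the 12 was -0.17 to -0.08 in the mutant against -0.40 to -0.32 in the wild type. The list was not uniform: 8 of its 12 differences were above 0 and the lowest was -0.15. Upk3b, of this list, was at 0.42, 0.15 and 0.49 in the wild type and at 0.14, 0.24 and 0.22 in the mutant. Of 11 primitive erythroid markers 1 rose, all 11 differences were above 0 and their median was 0.21. Of 11 visceral endoderm markers 0 rose and 0 fell, with a median of -0.05. The part of any of these cells in the E8.5 values of Sox17, Sox7 and the endothelial gene Cldn5 was not tested.

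The arterial gene lower in the mutant at E9.5 was Depp1, a transcript enriched in arterial endothelium, by 0.41 ± 0.076 (adjusted p = 0.0103, in 18 of 22 alternatives). It was at -0.89, -0.78 and -0.91 in the wild type and at -1.42, -1.08 and -1.30 in the mutant. From E8.5 it rose in both genotypes, by 0.73 in wild-type and 0.45 in mutant yolk sacs, and the difference between these rises, -0.28 ± 0.108, did not pass (adjusted p = 0.775). The median of the 22 genes was 0.03 at E8.5 and 0.05 at E9.5.

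Of 12 other venous and lymphatic genes measured (of 17), 1 fell in the mutant at E8.5: Lyve1, a hyaluronan receptor, by 0.37 ± 0.084 (adjusted p = 0.0438, in 4 of 22 alternatives). It was at 0.42, 0.24 and 0.38 in the wild type and at 0.11, 0.03 and -0.22 in the mutant at E8.5, and the genotypes overlapped at E9.5 (0.05 ± 0.084). At E9.5 0 of the 12 passed, with 3 at an unadjusted p under 0.05.

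Of 21 endothelial markers measured (of 22), 1 rose in the mutant at E8.5, the tight junction gene Cldn5, by 0.24 ± 0.051 (adjusted p = 0.0343, in 11 of 22 alternatives). At E9.5 0 of the 21 passed, with 2 at an unadjusted p under 0.05, and their median was 0.02. Of all genes 1.99% passed at that stage, and 12% had an unadjusted p under 0.05. The mean deviation of the 21 lay between -0.07 and 0.04 on the wild-type arrays at E9.5 and between -0.04 and 0.02 on the mutant arrays. Pecam1, the adhesion molecule of all endothelium, was at -0.07 to -0.05 in the wild type and at -0.03 to 0.01 in the mutant at that stage, 0.06 ± 0.046 higher, and Kdr, the VEGF receptor, was 0.06 ± 0.072 lower (adjusted p of 0.716 and 0.861). Cdh5, the cadherin of endothelial junctions, was at -0.44, -0.46 and -0.24 in the wild type and at -0.52, -0.53 and -0.47 in the mutant. Its genotypes did not overlap, with a difference of -0.12 ± 0.064 (adjusted p = 0.491). The part of the amount of endothelium in the E9.5 values of Unc5b and Depp1 was not tested.

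Between the stages, 13 of the 88 measured genes of these lists (14.8%) passed in both genotypes, the same share as among all genes (14.8%). Robo4, an endothelial guidance receptor, rose by 0.52 in wild-type and 0.53 in mutant yolk sacs, and Stab2, a scavenger receptor of sinusoidal endothelium, by 0.62 and 0.64. Plvap, of fenestral diaphragms, rose by 0.42 and 0.24. The falls were in early blood and endothelial regulators, Tal1 by 0.72 and 0.69, Lmo2 by 0.50 and 0.38 and Fli1 by 0.38 and 0.38, in Sox17 by 0.27 and 0.40 and Sox7 by 0.33 and 0.44, and in the vasoactive enzymes Nos3 by 0.23 and 0.28 and Ece1 by 0.26 and 0.37. Over the 4 lists 15 of 88 genes rose and 12 fell in the wild type, and 10 rose and 10 fell in the mutant. Over all genes 1784 rose and 1525 fell in the wild type and 1522 and 1476 in the mutant; with median centring these were 1382 and 77, and 1680 and 78, as the median of all genes moved to 0.11 and 0.14. For the genotype averaged over both stages, 327 genes were higher and 324 lower in the mutant, and 23 and 135 with median centring.

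**Figure D4:**
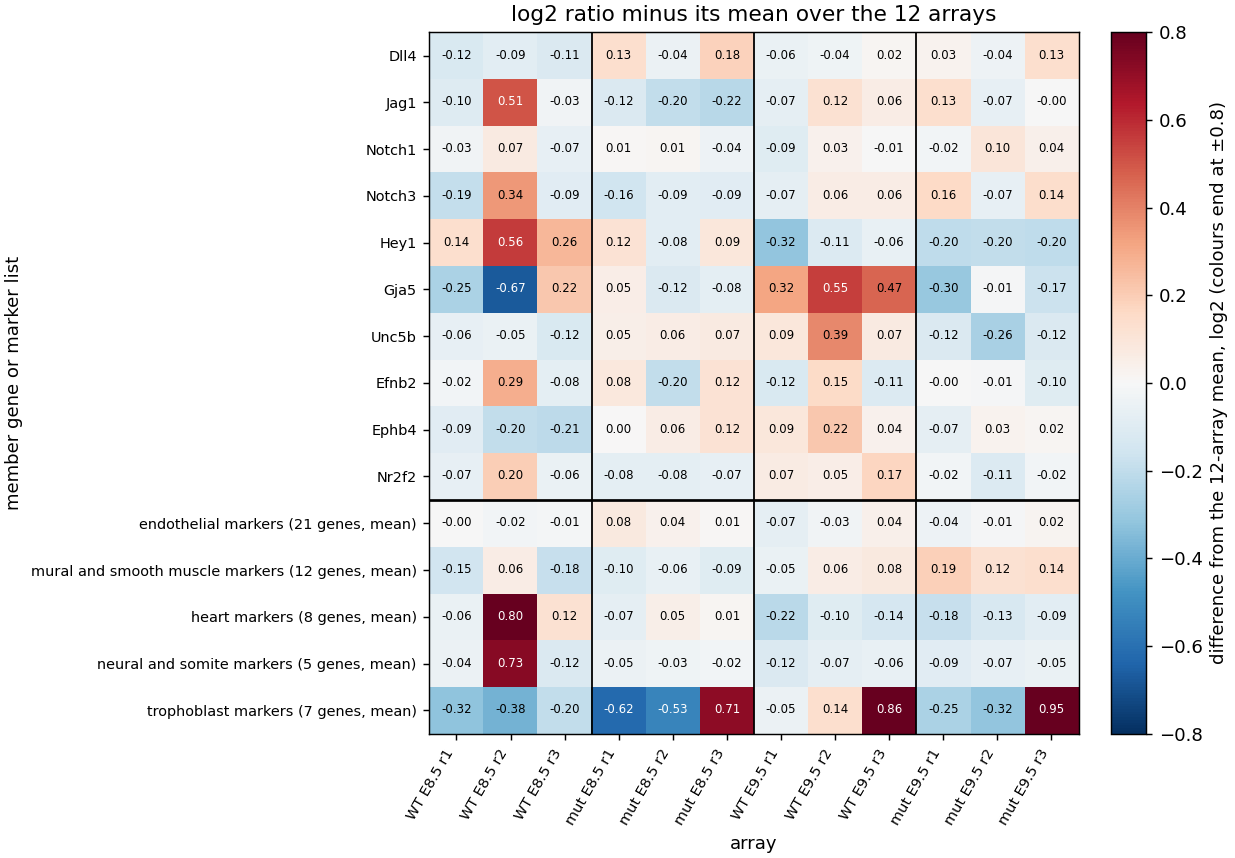
Log2 ratio of each of the 10 genes minus its mean over the 12 arrays (upper part), and the mean of the same deviation over 5 marker lists (lower part), by array; WT is wild type, mut mutant and r the replicate. Wild-type E8.5 replicate 2 is high for Jag1, Notch3 and Hey1 and low for Gja5, and is also the array where heart markers reach 0.80 and neural and somite markers 0.73. The Notch target Hes5 is among the neural and somite markers.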

How the data were processed

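Whole yolk sac RNA (500 ng) was extracted with TRIzol and RNeasy columns, amplified, labelled and hybridized on 12 Agilent 2-colour arrays, per the labels. Yolk sac carried Cy5 on every array, without a dye swap. Per the file headers, images were read with Feature Extraction 9.5.1.1, and grid names and scans mark 3 slides (the barcode of the second is repeated on the third), each with 1 array of every group. A group kept its position on the slide; the effect of position cannot be told apart from the group's. The deposited per-array files hold mean and local background intensity of each channel, the software's processed intensity (background-subtracted and dye-normalized), a log10 ratio of those and flags per spot. The deposited table of all arrays holds the authors' log2 ratios, centred by probe as the values show, for part of the probes. The build of the arrays' coordinates: not given in the sources used here.

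In limma 3.58.1 (R 4.3.3) background was corrected with normexp (offset 50), ratios were normalized by loess within arrays (control spots at weight 0), outlier spots and spots over 20 units below the local background were left out, and repeated spots were averaged. Of 41174 probes 20064 were kept, those whose Cy5 signal was well above background on each of the 3 arrays in 1 group or more. Names were updated by accession for 23483 probes and by symbol for 6678 (current) and 2875 (older). A gene was its kept probe of highest mean intensity (13897 genes). Group means were fitted to all 12 arrays (8 residual and 6.22 prior degrees of freedom). Comparisons were the 2 genotype differences, their average, their difference, and the 2 stage differences, with Benjamini-Hochberg adjustment over all genes. The script was tested on simulated data.

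Members and lists were chosen with earlier results of these data known. Named were all 10 members with every probe, genes of the 4 lists with an adjusted p under 0.05 for the genotype or its change with stage, the 5 genes of each list with the smallest adjusted p among those under 0.05 at both stage comparisons, and the 3 genes most correlated with each member that passed. One gene that the rule names is not reported here. Promoters are RefSeq's; motifs were searched on both strands. Alternatives were the processed signals, median centring, an offset of 10, no filter, the mean of kept probes, a replicate block, only the 6 arrays compared, the arrays high in trophoblast transcripts or each array left out, the deposited table, and, added after the data were seen, Xist as a covariate. P-values measure the spread between samples that the labels call biological replicates.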

Additional observations from a re-analysis of the deposited data

How the results depend on the processing

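Over 22 alternatives, 12 of them leaving out 1 array, the 10 members' differences were recomputed 1300 times: 1257 kept their side of the threshold, 34 lost and 9 gained a call, and among the first, 48 changed sign with neither fit passing. The members called between genotypes at E9.5 (1 in the text, Unc5b) numbered 0 with processed signals, median centring, an offset of 10, without the 3 arrays high in trophoblast transcripts, with the deposited table and with the Xist covariate, and 0 to 2 when 1 array was left out; with the 6 arrays alone the count was 1, but the gene was Gja5 and not Unc5b. Stage calls in the mutant (1) numbered 0 with those 6 and with no filter, 3 with only the 6 arrays compared, and 0 to 3 without 1 array. Stage calls in the wild type (4) numbered 2 with median centring and 3 to 4 without 1 array. The averaged genotype had 0 calls, and 0 to 1 without 1 array.

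For the 4 wider lists, the 4 genotype calls at E8.5 became 1 with processed signals, an offset of 10, only the 6 arrays compared or the deposited table, 2 with the mean of kept probes, 0 with median centring, without the 3 trophoblast-high arrays or with the Xist covariate, and 0 to 4 without 1 array. The 2 at E9.5 became 1 with processed signals, an offset of 10, no filter, the mean of kept probes or the deposited table, 0 with median centring, without the 3 arrays or with the Xist covariate, and 0 to 2 without 1 array. The 4 averaged calls became 1 with median centring, 2 without the 3 arrays and 4 to 5 without 1 array. The 27 wild-type stage calls became 16 with median centring (19 to 28 without 1 array), and the 20 mutant ones 13 without the 3 arrays and 12 with the Xist covariate (14 to 25 without 1 array). The cause of these changes was not tested, and the fits that leave arrays out also rest on fewer arrays.

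Over all genes the calls between genotypes ranged from 10 to 295 at E8.5 and from 26 to 369 at E9.5, those between stages from 1459 to 3945 in the wild type and from 1347 to 3480 in the mutant, the averaged ones from 158 to 857, and the genotype-by-stage ones from 0 to 5. Same-numbered arrays lay on 1 slide, and their deviations correlated with r between -0.0075 and 0.42 (median 0.23, over 0.1 in 16 of 18 pairs), against a median of -0.10 for different numbers (over 0.1 in 2 of 36). Arrays of a slide thus deviated together in most pairs but not in every one, and the labels do not pair the samples, so the fit has no block. With a replicate block, which here is the slide, Unc5b at E9.5 kept -0.35 (adjusted p = 0.0292), Gja5 there had an adjusted p of 0.0598, and no member changed its side of the threshold. Over all genes the block gave 295 calls at E8.5, 358 at E9.5, 3945 and 3480 between stages (wild type, mutant) and 857 averaged, against 200, 277, 3309, 2998 and 651. The differences of the dim probes of Dll4 and Jag1 at E8.5 moved with the background correction (0.20 to 0.82 and -0.31 to -0.89 with processed signals).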
